A study of Mus musculus with 15 samples.

Results

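Pyruvate made in the cytosol is oxidised in the cycle only after it has entered the mitochondrion and been turned into acetyl-CoA, and the 34 genes described here encode that entry and the tricarboxylic acid cycle behind it. They were chosen by name: the rows of the expression table whose symbol is on a list of the pyruvate carriers, the pyruvate dehydrogenase complex with its kinases and phosphatases, pyruvate carboxylase, the cycle enzymes without succinate dehydrogenase, and the malate-aspartate shuttle. All 34 symbols were among the 47643 in the table, and all 34 were among the 11923 genes kept for testing, those at 1 TPM or more in 3 or more libraries. TPM is transcript abundance per length, scaled to the same sum in every library, so levels can be set side by side between genes.

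The tissue was the tibialis anterior, a hind limb muscle made mostly of fast fibres, from female C57BL/6J mice whose labelled age was 7 weeks. Control mice (4 libraries) had a mock injection and no lisinopril, lisinopril mice (3 libraries) a mock injection and lisinopril, an inhibitor of angiotensin-converting enzyme, melanoma mice (4 libraries) a melanoma known to cause cachexia, and the last group (4 libraries) both the melanoma and lisinopril. The design text puts collection 49 days after implantation, whereas the protocol label speaks of 3 weeks in another tumour model. The melanoma line, the drug dose, and whether the age is that at implantation could not be taken from the sources used here. The labels call the samples biological replicates without naming animals, so p-values measure the spread between these libraries.

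Pyruvate crosses the inner mitochondrial membrane through a carrier of paired MPC1 and MPC2 proteins. The pyruvate dehydrogenase complex converts it to acetyl-CoA and is switched off when kinases phosphorylate it and on when phosphatases remove the phosphate. Acetyl-CoA enters the cycle through citrate synthase, and the malate-aspartate shuttle carries reducing power from glycolysis into the mitochondrion.

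The labelled tissue was checked by its markers: the muscle fibre genes Acta1, Ckm and Myh4 reached at least 13090, 6848 and 4077 TPM in every library. The libraries control 2 and melanoma 2 differed from the others, with correlations of 0.937 and 0.938 on average to the rest of their groups, where every other library had 0.965 or more, and results are also given without them. The 5 erythrocyte markers summed to 23990 TPM in control 2 and to at most 4212 TPM in each other library. Transcripts of the mitochondrial genome took 28.5% to 52.8% of TPM, the lowest share being in melanoma plus lisinopril 4 and the highest in control 3. A rise in that share lowers the TPM of every nuclear gene of a library. Sequencing depth is unknown, because TPM keep no totals.

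Members of the pathway were among the abundant transcripts of this muscle. Together they summed to between 7409 and 9606 TPM per library. Mdh2, the mitochondrial malate dehydrogenase, had the highest mean level at 791 TPM over the 15 libraries, above 99.3% of kept genes. Pdk4, Cs, Got2 and Idh3a came next at means of 640, 582, 574 and 567 TPM, and these 4 differed by less than their spread over the 15 libraries. The lowest were the kinase Pdk3 at 1.46 TPM and the phosphatase Pdp2 at 1.63 TPM. Spread within groups ran from a pooled SD of 0.064 on the log2 scale for Fh1, the fumarase, to 0.82 for Pdk4.

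Some genes of pyruvate entry and of the malate-aspartate shuttle had less transcript in tumour-bearing muscle. When the 8 tumour-bearing libraries were set against the 7 tumour-free ones, as the mean of the tumour effects with and without lisinopril, 7 members fell and 0 rose. The 7 were Mpc2 of the pyruvate carrier, Pdhb, Dlat and Pdhx of the dehydrogenase complex, and Mdh1, Mdh2 and Slc25a11 of the shuttle. That is 20.6% of the members, where 3.45% of the 11923 kept genes were called lower and 14.5% higher, 18% in all (limma, Benjamini-Hochberg adjusted p under 0.05). The median log2 fold change was -0.15 over the members and 0.17 over all kept genes, a difference of -0.32 (-0.17 with no filter on low values). In whole muscle, fewer cells of a type and less RNA per cell cannot be told apart.

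A further 7 members lay below 0 and 2 above 0 with an unadjusted limma p under 0.05 only. With the called members included, 14 lay below 0 and 2 above 0 at that level, beside 4526 of 11923 kept genes in either direction. In all, 25 of 34 members lay below 0, and 30 of 34 below the median of all kept genes. With libraries rescaled by the median of ratios, the median of all kept genes moved from 0.17 to -0.0039 and the calls from 1730 higher and 411 lower to 1107 higher and 1261 lower. With that rescaling 14 members were called, all lower, beside 10.6% of kept genes lower and 9.28% higher. It left 0 members above 0 at an unadjusted limma p under 0.05. With TPM recomputed without the mitochondrial genome, 12 members were called, all lower, beside 6.75% of kept genes lower and 10% higher, and the calls over all genes split into 1286 higher and 868 lower. Without control 2 and melanoma 2, 12 members fell and Idh2 rose, beside 5.12% of genes lower and 26.1% higher.

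**Figure D1:**
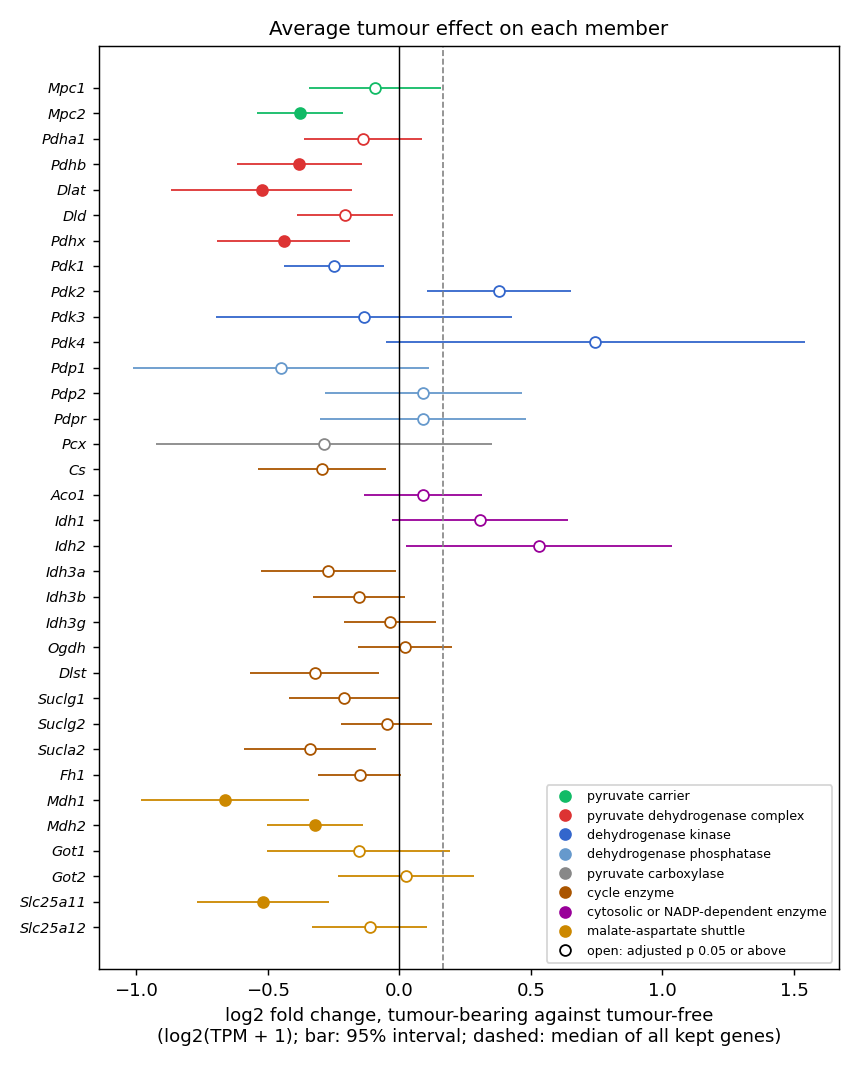
Log2 fold change of tumour-bearing against tumour-free muscle for each of the 34 members, coloured by role, with 95% intervals from limma; filled points passed an adjusted p of 0.05 and the dashed line is the median of all kept genes, 0.17. The 7 filled points all lie left of 0, between -0.66 and -0.32.

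Sequences before the RefSeq start are shown for 3 of the members that fell, chosen because their windows hold at most 19 bases of annotated untranslated exon. The Slc25a11 window lies inside the span of that gene in GENCODE M21 (chr11:70644196-70647479), so it is not upstream on that annotation. Pdk2, the member closest to a call in the opposite direction, is shown beside the 3. Each is the 250 bases before the gene's RefSeq start on GRCm38.p6, written 5′ to 3′ on the gene's own strand. Capitals mark the GC box (GGGCGG or its reverse complement CCGCCC) and the CCAAT box (CCAAT or ATTGG), which are short promoter motifs. The windows are chr11:70647040-70647289 on the minus strand for Slc25a11, chr2:103073514-103073763 on the minus strand for Pdhx, chr9:50659781-50660030 on the minus strand for Dlat, and chr11:95041372-95041621 on the minus strand for the first of the 2 Pdk2 starts.
Slc25a11: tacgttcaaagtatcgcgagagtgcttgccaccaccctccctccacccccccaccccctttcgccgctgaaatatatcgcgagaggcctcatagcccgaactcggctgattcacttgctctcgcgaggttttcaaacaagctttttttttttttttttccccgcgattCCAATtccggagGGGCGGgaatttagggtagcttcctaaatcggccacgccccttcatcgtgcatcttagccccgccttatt
Pdhx: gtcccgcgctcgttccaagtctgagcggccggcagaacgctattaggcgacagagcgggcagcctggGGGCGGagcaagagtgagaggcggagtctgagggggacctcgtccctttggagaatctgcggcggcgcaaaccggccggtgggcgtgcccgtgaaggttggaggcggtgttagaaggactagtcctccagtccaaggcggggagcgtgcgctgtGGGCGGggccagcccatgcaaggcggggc
Dlat: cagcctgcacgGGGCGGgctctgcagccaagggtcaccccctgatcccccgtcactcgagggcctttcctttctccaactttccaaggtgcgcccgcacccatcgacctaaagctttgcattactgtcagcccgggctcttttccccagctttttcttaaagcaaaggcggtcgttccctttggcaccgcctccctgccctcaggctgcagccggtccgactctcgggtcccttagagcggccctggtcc
Pdk2: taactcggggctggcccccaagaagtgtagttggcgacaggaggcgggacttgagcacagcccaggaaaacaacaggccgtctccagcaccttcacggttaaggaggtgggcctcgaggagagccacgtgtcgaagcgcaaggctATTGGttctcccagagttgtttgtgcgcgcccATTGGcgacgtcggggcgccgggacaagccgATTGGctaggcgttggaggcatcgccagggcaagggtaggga

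The Slc25a11 window held 1 GC box and 1 CCAAT box, the Pdhx window 2 GC boxes, and the Dlat window 1 GC box. The Pdk2 window held 3 CCAAT boxes and no GC box. RefSeq windows were found for 32 of the 34 members, all but Pdp1 and Idh3a. A GC box was present in 7 of the 7 members that fell, in 68.8% of the 32 members, in 64.0% of kept genes with a window, and in 32.7% of all 32851 windows. The CCAAT box was present in 4 of the 7, in 59.4% of members and in 40.2% of kept genes. The motif AAGGTCA (or TGACCTT), which is bound by oestrogen-related receptors, was present in 0 of the 7 and in 3.13% of members, against 3.53% of kept genes, and the letters GTAAACA (or TGTTTAC) of FoxO proteins in 0 of the 32, against 2.61% of kept genes. Both strands were searched, and these counts describe letters in the windows only. Among the 7, all 250 bases of the Mpc2 and Mdh1 windows, and 169 of the Mdh2 window, are annotated exon in GENCODE M21.

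Of the pyruvate carrier, Mpc2 fell and Mpc1 was not called. Mpc2 (chr1:165460637-165481214, mm10) was at 104, 97.8, 117 and 111 TPM in the control libraries and 119, 118 and 116 TPM with lisinopril alone. It was at 86.7, 85.1, 93.8 and 81.8 TPM in the melanoma libraries and 88.3, 85.1, 80.5 and 89.7 TPM in those with melanoma and lisinopril. Every tumour-bearing library was thus below every tumour-free one, the narrowest gap being that between melanoma 3 and control 2. Mpc2 was the only member so separated, 1 of 34, where 0.839% of kept genes were separated in that direction and 1.49% in the other. Its level was 1.30-fold lower in tumour-bearing muscle (log2 fold change -0.38 ± 0.077 SE, limma adjusted p = 0.00745).

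Mpc1, the partner subunit of the carrier, was between 323 and 417 TPM in tumour-free libraries (median 363) and between 286 and 449 TPM in tumour-bearing ones (median 346). The groups overlapped, with 3 tumour-bearing libraries below and 2 above all tumour-free ones, and the log2 fold change was -0.091 with a 95% interval from -0.34 to 0.16. The ratio of Mpc2 to Mpc1 within a library ran from 0.280 to 0.338 without tumour (median 0.302) and from 0.190 to 0.303 with tumour (median 0.249). In 5 of 8 tumour-bearing libraries the ratio was below every tumour-free value.

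In the dehydrogenase complex 3 of 5 members fell. Pdhb, the beta subunit of the first enzyme (E1), is at chr14:8165996-8173025. It was at 431, 305, 472 and 428 TPM in control and 435, 424 and 358 TPM with lisinopril. With melanoma it was at 291, 322, 356 and 311 TPM, and with melanoma and lisinopril at 340, 308, 315 and 252 TPM. Control 2 was low among tumour-free libraries and made the groups overlap: only 2 tumour-bearing libraries were below it, whereas all 8 were below the other 6. Pdhb was 1.30-fold lower (log2 fold change -0.38 ± 0.11 SE, limma adjusted p = 0.0336). The call was lost in 8 of 22 alternative analyses, with adjusted p up to 0.0906: with the replicate number as a block, and without control 1, control 3, control 4, lisinopril 1, lisinopril 2, melanoma 1 or melanoma plus lisinopril 4.

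Dlat encodes the acetyl transferase core of the complex (E2) and is at chr9:50634633-50659780. It was at 136, 86.6, 129 and 121 TPM in control, 105, 112 and 105 TPM with lisinopril, 87.1, 59.4, 93.8 and 66.0 TPM with melanoma, and 78.1, 114, 85.4 and 53.0 TPM with both. The groups overlapped through control 2 and through melanoma plus lisinopril 2, and 5 of 8 tumour-bearing libraries were below all tumour-free ones. Dlat was 1.44-fold lower (log2 fold change -0.52 ± 0.16 SE, limma adjusted p = 0.0391). The call was made in 10 of 22 alternative analyses, the fewest among the 7 members, with adjusted p between 0.0142 and 0.0841. It was lost with no filter, with the replicate number as a block, and without control 1, control 3, control 4, any 1 of the lisinopril libraries, melanoma 2, melanoma 4, melanoma plus lisinopril 1 or melanoma plus lisinopril 4.

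Pdhx anchors the third enzyme (E3) to the core and is at chr2:103021075-103073513. It was at 58.0, 42.6, 62.3 and 56.6 TPM in control, 57.4, 53.8 and 55.0 TPM with lisinopril, 44.1, 31.6, 46.7 and 42.7 TPM with melanoma, and 41.4, 44.2, 43.1 and 31.2 TPM with both. Control 2 again lay among the tumour-bearing values, and all 8 of these were below the other 6 tumour-free libraries. The level was 1.35-fold lower (log2 fold change -0.44 ± 0.12 SE, limma adjusted p = 0.0254). The call was lost in 5 of the 22 alternatives, those leaving out control 3, control 4 or any 1 of the lisinopril libraries.

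Pdha1, the alpha subunit of E1 that the kinases phosphorylate, was between 439 and 544 TPM without tumour (median 465) and between 324 and 507 TPM with tumour (median 442). Its log2 fold change was -0.14 with an interval from -0.36 to 0.087, and a difference from Pdhb was not tested. The ratio of Pdhb to Pdha1 within a library overlapped, from 0.693 to 0.939 without tumour and from 0.608 to 0.995 with tumour. Of the 8 tumour-bearing libraries, 3 were below and 1 above every tumour-free ratio. Dld, the E3 enzyme shared with other dehydrogenases, had a log2 fold change of -0.21 and an adjusted p of 0.0917. Summed over the 5 genes the complex held between 1130 and 1550 TPM without tumour (median 1359) and between 933 and 1254 TPM with tumour (median 1122).

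**Figure D2:**
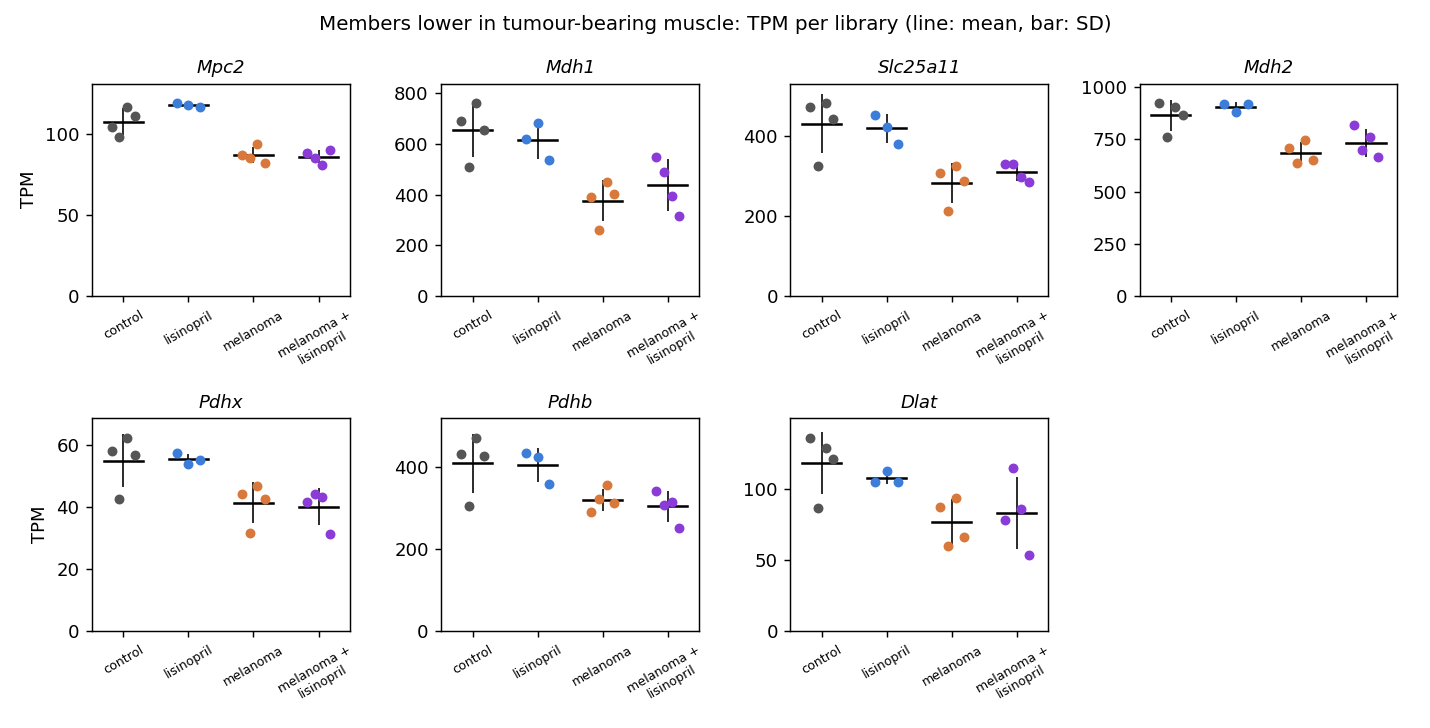
TPM of the 7 members called lower in tumour-bearing muscle, 1 panel per gene and 1 point per library, with the group mean as a line and the SD as a bar; groups are control (n = 4), lisinopril (3), melanoma (4) and melanoma plus lisinopril (4). In the Mpc2 panel all 8 tumour-bearing points lie below all 7 tumour-free points, and in the Pdhb, Pdhx and Slc25a11 panels the low control point is control 2.

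The kinases that switch the complex off showed no called change, and their levels in tumour-bearing muscle were uneven. Pdk4, the isoform induced by fasting in muscle, was at 709, 699, 334 and 431 TPM in control and 393, 294 and 279 TPM with lisinopril. It was at 208, 1418, 710 and 1041 TPM with melanoma, and at 654, 409, 527 and 1489 TPM with both. The lowest and the highest values of all 15 libraries were both tumour-bearing, and 4 of 8 tumour-bearing libraries were above every tumour-free one. The log2 fold change was 0.75 ± 0.37 SE with a 95% interval from -0.05 to 1.54 (limma adjusted p = 0.156). Leaving out melanoma 1, the lowest library, gave 1.03 with a limma adjusted p of 0.0322. That was the 1 call in 22 alternatives, over which the change ran from 0.53 to 1.03, with adjusted p up to 0.287.

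Pdk2, a kinase isoform expressed in most tissues, was at 267, 240, 219 and 265 TPM in control, 248, 239 and 270 TPM with lisinopril, 321, 486, 318 and 282 TPM with melanoma, and 341, 246, 281 and 375 TPM with both. Of the 8 tumour-bearing libraries 7 were above every tumour-free one, melanoma plus lisinopril 2 being the exception. The log2 fold change was 0.38 ± 0.13 SE (limma adjusted p = 0.0521), and it passed the threshold in 3 of 22 alternatives. Over these 22 it ran from 0.17 to 0.43, with limma adjusted p up to 0.267. Pdk1 had a log2 fold change of -0.25 (adjusted p = 0.0619), with 7 of 8 tumour-bearing libraries below all tumour-free ones. Pdk3 was at 7.44 TPM in control 2 and at most 1.68 TPM in each other library, and its sign turned from -0.13 to 0.12 without control 2.

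The kinase makeup differed between libraries mainly through Pdk4. Its share of the summed kinase TPM ran from 48.6% to 71.9% without tumour (median 58.8%) and from 37.8% to 78.8% with tumour (median 66.0%). The summed kinase level ran from 556 to 1005 TPM without tumour (median 667) and from 550 to 1925 TPM with tumour (median 1032). Markers of slow fibres, a fibre type rich in mitochondria, summed to between 12.5 and 166 TPM without tumour and between 31.2 and 497 TPM with tumour. The 497 TPM was in melanoma plus lisinopril 4, and the next highest tumour-bearing sum was 125 TPM in melanoma 4. Of these markers 0 of 8 were called by limma and 1 had an unadjusted p under 0.05. Myh2 of fast IIA fibres had medians of 372 TPM without and 256 TPM with tumour. Myh1 of fast IIX fibres had 4398 and 5898 TPM, and neither was called. Of the 4 fast IIB fibre markers 0 were called by limma, and their median log2 fold change was 0.47. Medians without and with tumour were 7195 and 12131 TPM for Myh4, and 3113 and 4769 TPM for Actn3. Mybpc2 had 1770 and 2575 TPM, whereas Pvalb had 10379 and 6473 TPM. The part of these fibre types in the kinase levels was not tested.

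**Figure D3:**
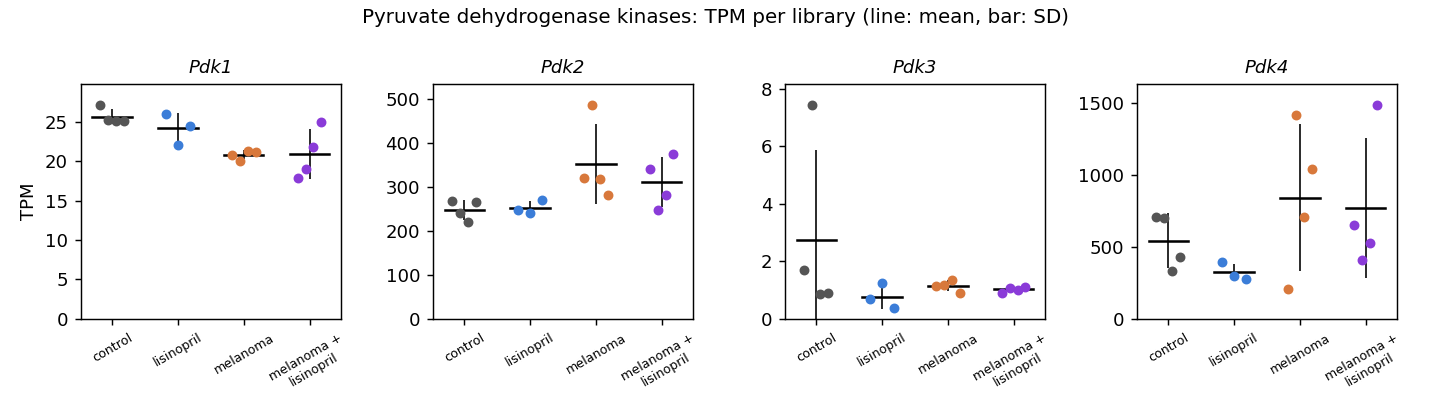
TPM of the 4 pyruvate dehydrogenase kinases per library in the control (n = 4), lisinopril (3), melanoma (4) and melanoma plus lisinopril (4) groups, with the group mean as a line and the SD as a bar. Pdk4 ranges from 208 to 1489 TPM among tumour-bearing libraries, whereas Pdk2 stays between 246 and 486 TPM there.

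The phosphatases that switch the complex back on, and pyruvate carboxylase, had 0 of 4 members called by limma, also at an unadjusted p under 0.05. Pdp1, the calcium-stimulated phosphatase of muscle, had a log2 fold change of -0.45 (adjusted p = 0.220) and ran from 27.7 to 49.7 TPM without tumour and from 11.2 to 52.5 TPM with tumour. The lowest Pdp1 level was in melanoma 2. Pdp2 was below 4 TPM in every library. Pdpr, the regulatory subunit, had a log2 fold change of 0.09 that turned to -0.12 with median-ratio rescaling. Pcx, which makes oxaloacetate from pyruvate, was at 165 TPM in control 4 and at most 62.9 TPM elsewhere, and its log2 fold change of -0.29 became 0.0011 without control 4.

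Apart from Mdh2, which fell and is described with the shuttle, the mitochondrial cycle is represented by 10 genes. None of these 10 was called by limma, although 9 of 10 log2 fold changes lay below 0 and 5 had an unadjusted p under 0.05. Of all 11923 kept genes, 4526 had an unadjusted limma p under 0.05, in either direction. Cs, the entry enzyme, was between 563 and 686 TPM without tumour (median 648) and between 344 and 605 TPM with tumour (median 561). Of the 8 tumour-bearing libraries 4 were below every tumour-free one, and all 8 were below the 6 tumour-free libraries other than control 2. Its log2 fold change was -0.29 ± 0.11 SE (adjusted p = 0.0789). The largest change of the 10 was that of Sucla2, a subunit of the ADP-forming succinyl-CoA synthetase, at -0.34 (adjusted p = 0.0568), with 7 of 8 tumour-bearing libraries below all others.

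The subunits of NAD-dependent isocitrate dehydrogenase gave unequal values. Idh3a, the catalytic subunit, was between 438 and 698 TPM without tumour (median 645) and between 389 and 584 TPM with tumour (median 537), with a log2 fold change of -0.27 (adjusted p = 0.114). Control 2 was the low tumour-free library, and all 8 tumour-bearing values were below the other 6. Idh3b and Idh3g, the regulatory subunits, had -0.15 and -0.04. Idh3a to Idh3g was 2.96 at the tumour-free median and 2.41 at the tumour-bearing median, with overlapping ranges of 1.89 to 3.06 and 2.10 to 2.66.

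In the oxoglutarate dehydrogenase complex, Dlst, the succinyl transferase core, had a log2 fold change of -0.32 (adjusted p = 0.0610) and Ogdh, the first enzyme, 0.02. Ogdh was between 323 and 408 TPM without tumour (median 374) and between 329 and 417 TPM with tumour (median 384). The groups overlapped, with 2 tumour-bearing libraries above every tumour-free one and 0 below. The 95% interval of Ogdh ran from -0.16 to 0.20, and its sign was negative, at -0.19, with median-ratio rescaling. Suclg1, Fh1 and Suclg2 had -0.21, -0.15 and -0.05. Fh1 had the smallest spread of all members, and 6 of 8 tumour-bearing libraries were below every tumour-free one.

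Removing control 2 changed how far these groups were apart. With it, 1 member had all 8 tumour-bearing libraries below the tumour-free ones. Without it, 10 members did (Mpc2, Pdhb, Pdhx, Dld, Cs, Idh3a, Suclg1, Sucla2, Mdh2 and Slc25a11), where 1.93% of kept genes were so separated, and 0 members had all 8 above the other 6, where 9.23% of kept genes did. By limma without control 2, 11 members fell, beside 5.28% of all genes, and Idh2 rose, beside 28.2%.

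Aco1, the cytosolic aconitase, and the NADP-dependent isocitrate dehydrogenases Idh1 and Idh2 had log2 fold changes above 0, though none was called and that of Aco1 turned from 0.09 to -0.10 with median-ratio rescaling. Idh2, the mitochondrial NADP-dependent isocitrate dehydrogenase, was at 132, 223, 99.97 and 86.5 TPM in control, 67.2, 99.6 and 105 TPM with lisinopril, 110, 199, 102 and 136 TPM with melanoma, and 242, 122, 135 and 258 TPM with both. The high values came from control 2, melanoma 2 and melanoma plus lisinopril 1 and 4, so the groups overlapped. The log2 fold change was 0.53 ± 0.24 SE (limma adjusted p = 0.115), and 0.67 with an adjusted p of 0.0300 without control 2. Idh2 was called in 2 of 22 alternatives, over which the change ran from 0.32 to 0.67, with limma adjusted p up to 0.259. Idh1, the cytosolic counterpart of Idh2, had 0.31 (adjusted p = 0.161).

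Of the 6 members of the malate-aspartate shuttle 3 fell, both malate dehydrogenases and 1 of the carriers. Mdh1, the cytosolic malate dehydrogenase (chr11:21556787-21572367), was at 693, 508, 762 and 656 TPM in control and 622, 685 and 536 TPM with lisinopril. It was at 392, 262, 448 and 404 TPM with melanoma and at 550, 491, 395 and 315 TPM with both. Only melanoma plus lisinopril 1 reached into the tumour-free range. Mdh1 was 1.58-fold lower (log2 fold change -0.66 ± 0.15 SE, limma adjusted p = 0.0125).

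Slc25a11, the carrier that exchanges malate for oxoglutarate (chr11:70644196-70647479), was at 473, 324, 483 and 443 TPM in control, 452, 423 and 380 TPM with lisinopril, 308, 212, 324 and 288 TPM with melanoma, and 329, 331, 296 and 284 TPM with both. Control 2 lay among the tumour-bearing values, and all 8 of these were below the other 6 tumour-free libraries. The level was 1.43-fold lower (log2 fold change -0.52 ± 0.12 SE, limma adjusted p = 0.0127). Slc25a12, the aspartate-glutamate carrier of the same shuttle, was between 136 and 213 TPM without tumour (median 181) and between 146 and 179 TPM with tumour (median 165), and its log2 fold change was -0.11 with an interval from -0.33 to 0.11.

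Mdh2, which works both in the shuttle and in the cycle (chr5:135778480-135790398), was at 925, 760, 908 and 868 TPM in control, 918, 882 and 920 TPM with lisinopril, 711, 635, 745 and 652 TPM with melanoma, and 817, 697, 760 and 666 TPM with both. All but melanoma plus lisinopril 1 were below every tumour-free library. Mdh2 was 1.25-fold lower (log2 fold change -0.32 ± 0.085 SE, limma adjusted p = 0.0240), and the call was lost without any 1 of the lisinopril libraries, with adjusted p up to 0.0651. The aminotransferase Got1 was between 322 and 557 TPM without tumour (median 507) and between 315 and 566 TPM with tumour (median 390), with a log2 fold change of -0.15 (adjusted p = 0.504). Its mitochondrial partner Got2 had 0.03, and -0.19 with median-ratio rescaling.

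Ratios between members of a pair do not move when a whole library is rescaled, so they were set beside the levels for 10 pairs, as a description and without a test. Slc25a11 to Slc25a12 ran from 1.92 to 2.85 without tumour (median 2.39) and from 1.20 to 2.23 with tumour (median 1.83). Mdh1 to Mdh2 ran from 0.582 to 0.840 without tumour (median 0.749) and from 0.412 to 0.704 with tumour (median 0.577). In 5 and 4 of 8 tumour-bearing libraries, respectively, these ratios were below every tumour-free one. For Idh3a to Idh3b no tumour-bearing library was outside the tumour-free range (1.63 to 2.46). Got1 to Got2 and Sucla2 to Suclg2 each had 2 of 8 tumour-bearing libraries below every tumour-free one and 0 above. Pdhx to Dlat had 1 below and 2 above, with medians of 0.483 without and 0.519 with tumour. Pdk4 to Pdk2 had 1 below and 3 above.

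**Figure D4:**
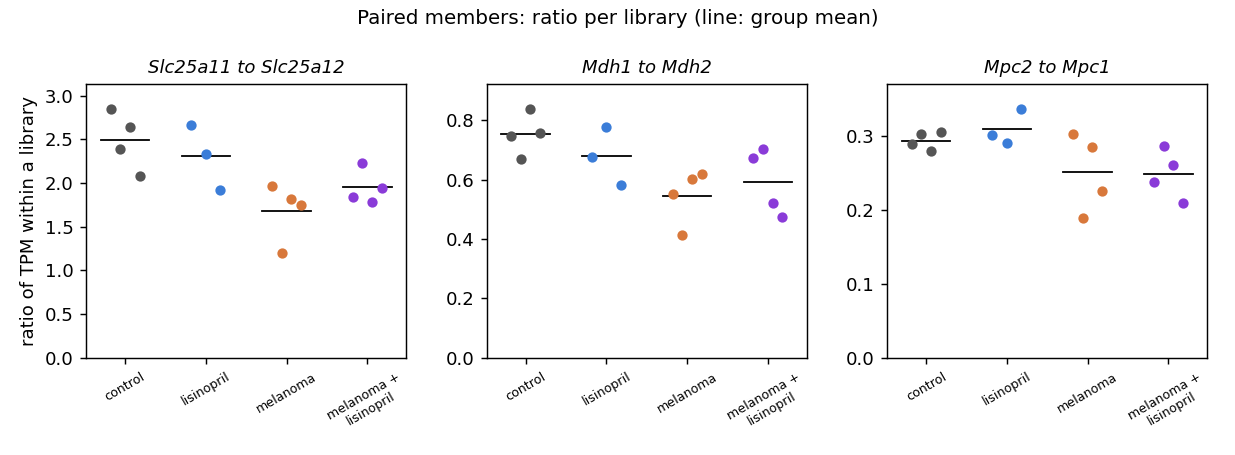
Ratio of the TPM of 2 members within each library, by group (control n = 4, lisinopril 3, melanoma 4, melanoma plus lisinopril 4), with the group mean as a line. In the Slc25a11 to Slc25a12 panel the tumour-bearing libraries lie between 1.20 and 2.23 and the tumour-free ones between 1.92 and 2.85.

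In each drug arm alone, the tumour effect on the members called none of the 34. In melanoma against control 0.646% of kept genes were called (77), 0.461% higher and 0.185% lower, and the lowest adjusted p among members was that of Mdh1, 0.0797 at a log2 fold change of -0.81. In that comparison 11 members lay below 0 and 1 above with an unadjusted limma p under 0.05, beside 2209 of 11923 kept genes in either direction. Without control 2, Mdh1 and Slc25a11 were called lower. In melanoma plus lisinopril against lisinopril 1.48% of kept genes were called (177), 1.34% higher and 0.143% lower. There the lowest adjusted limma p among members was that of Mpc2, 0.0586 at -0.45. At an unadjusted limma p under 0.05, 6 members lay below 0 and 1 above, beside 2781 of 11923 kept genes in either direction. Leaving out control 2 or melanoma 2, which belong to neither group but enter the shared estimate of spread, brought Mpc2 past the threshold in the latter.

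The 2 arms share no library, and 22 of 34 members (64.7%) lay below 0 in both, against 20.96% of kept genes. Of the members 5 lay above 0 in both (14.7%), against 58.7% of kept genes. These shares are on the TPM scale, where the median of all kept genes was 0.10 without and 0.23 with lisinopril. With median-ratio rescaling these medians were -0.014 and 0.0057, and the shares were not recounted. The 7 members that fell in the average lay below 0 in both arms: Mdh1 at -0.81 and -0.51, Dlat at -0.62 and -0.42, Slc25a11 at -0.61 and -0.43, Pdhx at -0.40 and -0.47, Pdhb at -0.34 and -0.42, Mdh2 at -0.33 and -0.31, and Mpc2 at -0.30 and -0.45, without and with lisinopril. These 7 were chosen by the mean of the same 2 effects, so their shared sign is not separate support. Idh2 was at 0.06 and 1.00, and Pdk4 at 0.40 and 1.09. The median of members minus that of all kept genes was -0.35 without lisinopril (-0.21 when control 3 was left out) and -0.39 with it (-0.20 with no filter).

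**Figure D5:**
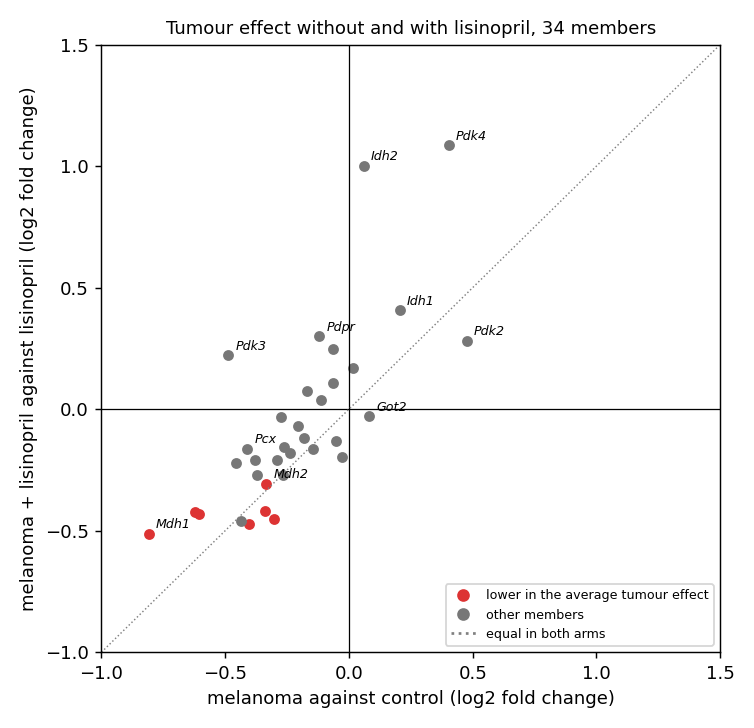
Log2 fold change of the tumour effect without lisinopril (melanoma against control, x axis) and with it (melanoma plus lisinopril against lisinopril, y axis) for the 34 members; the dotted line marks equal effects and red points the 7 members called lower in the average. 22 points lie below 0 on both axes.

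No member was called for lisinopril itself. In lisinopril against control 0 of 34 members and 0% of kept genes were called by limma, with 461 kept genes and 0 members at an unadjusted p under 0.05. The member values ran from -0.79 for Pdk3, the gene that was high in control 2, to 0.13 for Mpc2, whose 95% interval was -0.11 to 0.37. Pdk4 was at -0.70 with an interval from -1.87 to 0.47, so a large fall cannot be told from no change with 4 and 3 libraries.

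In melanoma plus lisinopril against melanoma, again 0 members and 0% of kept genes were called by limma, and 189 kept genes and 0 members had an unadjusted p under 0.05. Mdh1 was at 0.21 with an interval from -0.22 to 0.65, Slc25a11 at 0.15 with an interval from -0.19 to 0.49, and Mpc2 at -0.01 with an interval from -0.24 to 0.21. The interaction, which tests whether the tumour effect differed between the arms, called 0 members and 0% of kept genes by limma, with 151 kept genes and 0 members at an unadjusted p under 0.05. The largest interaction was that of Idh2 at 0.94 ± 0.47 SE, with an unadjusted limma p of 0.0653 and an adjusted p of 1.00.

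Genes next to the pathway gave counts of their own in the average tumour effect, where 14.5% of kept genes were called higher and 3.45% lower. Of the 9 genes of aconitase and succinate dehydrogenase, the cycle steps outside the 34, 3 fell: Sdhaf4, an assembly factor, at -0.59 (limma adjusted p = 0.0240), Sdhb, the iron-sulphur subunit, at -0.41 (0.0224), and Sdhd, a membrane anchor, at -0.37 (0.0447). Their list median was -0.27.

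Of 11 kept genes of lactate and pyruvate handling 1 rose, Gpt2, the mitochondrial alanine aminotransferase that interconverts pyruvate and alanine, at 0.90 (limma adjusted p = 0.0130). Of 10 genes of anaplerosis and carbon export 1 rose, Glul, glutamine synthetase, at 1.52 (adjusted p = 0.0110), from a median of 140 to 406 TPM. Medians of these lists were -0.0079 and -0.06.

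Among 16 kept regulators of mitochondrial and fasting programmes 5 rose and 1 fell, with a list median of 0.17. Foxo1, a transcription factor of fasting and atrophy that is known to induce Pdk4, rose by 1.85 (limma adjusted p = 0.00538), from between 3.70 and 8.59 TPM without tumour to between 8.68 and 46.2 TPM with tumour. Foxo3 and Hif1a rose by 0.85 and 0.65. The other called regulators, named after their values were seen, were Ppard and Nrf1, which rose by 0.64 and 0.50, and Tfam. Tfam, a factor needed to transcribe the mitochondrial genome, fell by 0.29 on the log2 scale (adjusted p = 0.0478). Ppargc1a at 0.70, Esrra at -0.42, Klf15 at 0.65 and Angptl4 at -0.34, regulators or targets of oxidative and fasting programmes, had adjusted p of 0.0879, 0.0739, 0.196 and 0.129.

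Markers of other cell types moved beside these results. All 5 neutrophil markers rose, with sums between 10.3 and 96.5 TPM without tumour and between 32.1 and 347 TPM with tumour, as did 2 of 7 macrophage markers (Mrc1 and Cd163). Of 5 fibroblast markers Pdgfra and Dcn rose, whereas the collagen genes Col1a1, Col3a1 and Col6a1, none called, had log2 fold changes of -0.96, -1.58 and -0.93, the list median being -0.93. Of 5 endothelial markers Kdr fell, whereas Pecam1, Tie1, Cdh5 and Emcn, none called, had 0.64, 0.39, 0.11 and -0.0015, the list median being 0.11. Of 3 kept B cell markers Ighm fell. None of the 7 muscle fibre markers was called by limma, 2 having an unadjusted p under 0.05 (Myh4 and Actn3, both above 0), the list median being 0.16. Median TPM went down with tumour for Acta1 (31710 to 27972), Mylpf (13701 to 10948) and Pvalb (10379 to 6473). It went up for Ckm and Tnnt3, as for Myh4 and Actn3. Sums of the 7 ran from 63288 to 114337 TPM without tumour and from 53141 to 131620 TPM with tumour. The erythrocyte markers, which were high in control 2, had 0 of 5 called and 0 at an unadjusted p under 0.05. The part of these cell types in the members' levels was not tested.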

How the data were processed

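Transcripts of tibialis anterior muscle were measured by RNA sequencing in 15 libraries, made with a stranded mRNA kit (TruSeq) per the labels' protocols. The authors deposited 1 table of TPM, against build mm10, as the submitters' processing notes state. Which aligner, counting program, annotation and filters they used is not given in the sources used here. Groups came from the labelled treatment.

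All 11923 kept genes (1 TPM or more in 3 or more libraries) entered a linear model of log2(TPM + 1) with 4 group means, in limma 3.58.1 (R 4.3.3) with trended eBayes, which had 11 residual and 3.80 prior degrees of freedom. Fold changes are on that scale, which understates changes of low genes. Tests were two-sided, with Benjamini-Hochberg adjustment over all kept genes within each of 6 contrasts and 0.05 as threshold. Errors are standard errors from limma. The fit was tested on simulated data. Calls use no member-only adjustment.

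The members and lists were chosen with earlier results of these data known. Values are given for called members, for Pdk4, Pdk2, Mpc1, Mpc2, Pdha1, Dlat, Cs, Idh2, Idh3a, Ogdh, Mdh2, Got1 and Slc25a12 whatever their result, for up to 3 called genes of each related list, and for Ppargc1a, Esrra, Foxo1, Klf15 and Angptl4. Other members, markers and regulators were named after their values were seen. One related list is not reported here. The 10 ratios between members were chosen after values were seen. Alternatives were another pseudocount (0.1), no filter, a stricter filter (mean TPM of 5 or more), rescaling by the median of ratios, TPM without the mitochondrial genome, a block for the replicate number, fits of 2 groups at a time, and removal of each library or of control 2 and melanoma 2 together.

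Gene positions came from GENCODE M21 (mm10) and upstream sequences from RefSeq (GRCm38.p6). The pseudogenes Got2-ps1 and Mpc1-ps were listed at 0 TPM. Python 3.11.15, pandas 2.3.3 and matplotlib 3.10.9 were used.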

Additional observations from a re-analysis of the deposited data

Results flagged for a closer look

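In 4 of 102 sets of 4 libraries (34 members in 3 groups, 3.92%), 1 library was far from the other 3 of its group by Dixon's 95% limit, a limit that chance passes in about 1 set in 20. Pdha1 was at 324 TPM in melanoma 2 and between 441 and 455 TPM in the other melanoma libraries. Pcx was at 165 TPM in control 4 and between 31.5 and 33.7 TPM in the other controls. Pdk1 was at 27.2 TPM in control 1 against 25.1 to 25.3 TPM, a gap that is large only beside the narrow range of the others. Idh3g was at 258 TPM in melanoma plus lisinopril 1 against 218 to 223 TPM. None of these 4 members was called by limma in any of the 6 contrasts.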

How the results depend on the processing

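Of the members that fell in the average tumour effect, Mpc2, Mdh1 and Slc25a11 were called in all 22 alternatives, Mdh2 in 19, Pdhx in 17, Pdhb in 14 and Dlat in 10, and all 7 kept their direction. The count of 7 called members became 14 with median-ratio rescaling, 12 without the mitochondrial genome, 13 without control 2 and melanoma 2, and 3 to 12 without 1 library: 12 without control 2, 4 without control 3, control 4 or lisinopril 3, and 3 without lisinopril 1 or lisinopril 2. In melanoma against control it was 1 without control 2 and melanoma 2, and 0 to 2 without 1 library. In melanoma plus lisinopril against lisinopril it was 1 with median-ratio rescaling or without the mitochondrial genome, 5 without both libraries, and 0 to 1 without 1 library, and the median of members against all genes was -0.20 with no filter. For the average tumour effect that median went from -0.32 to -0.17 with no filter, and for melanoma against control from -0.35 to -0.21 without control 3.

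Log2 fold changes in the average tumour effect that turned, none of them called, were these. Median-ratio rescaling gave Pdp2 -0.033, Pdpr -0.12, Aco1 -0.10, Ogdh -0.19 and Got2 -0.19. Leaving out the mitochondrial genome gave Pdpr -0.041, Aco1 -0.031, Ogdh -0.11 and Got2 -0.11. Without 1 library, Pdk3 ran from -0.25 to 0.12 (highest without control 2), Pdp2 from -0.056 (without melanoma 2) to 0.17, Pdpr from -0.11 (without lisinopril 1) to 0.24, Pcx from -0.39 to 0.0011 (without control 4), Ogdh from -0.020 (without lisinopril 2) to 0.062, and Got2 from -0.026 (without control 2; also below 0 without melanoma 2 or melanoma plus lisinopril 1) to 0.081. Without control 2 and melanoma 2 together Pdk3 was 0.11, Idh3g 0.0043, Ogdh -0.0040 and Got2 -0.076. The cause of these shifts was not tested.

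Groups share replicate numbers in the labels. Over 21 same-numbered pairs the correlation of deviations from group means ran from -0.153 to 0.359, with 9 over 0.1. Of 15 libraries 4 correlated best with a library of their own number. No clear pairing by number was seen, but such correlations cannot exclude one. With the number as a replicate block 5 members were called (Pdhb and Dlat were not). Depth is unknown, which leaves Pdk3 and Pdp2, near 1 TPM, without a detection limit.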
